A study of Mus musculus with 10 samples.

Results

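Ki67-low and Ki67-high cells were compared at a medium level of the Lgr5 reporter, across all genes of the deposited value table. The comparison set 2 arrays of Lgr5-medium Ki67-low cells against 4 arrays of Lgr5-medium Ki67-high cells, which are 6 of the 10 arrays of the series. Both groups were sorted by flow cytometry from intestinal epithelium that carried an Lgr5-EGFP-ires-CreERT2 allele, in which the Lgr5 promoter drives green fluorescent protein, and a Ki67-TagRFP allele, in which red fluorescent protein is fused to the end of the endogenous Ki67 protein. They differ in red fluorescence and share medium green fluorescence and both alleles. The other 4 arrays hold the Ki67-low and Ki67-high cells with high green fluorescence, 2 arrays each. Each sample's RNA was read on 1 array of the type Affymetrix Mouse Gene ST 1.1. The sources used here state no age, sex, gut segment or number of animals per sort, and the labels name no treatment.

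Lgr5 is a receptor for R-spondins that marks the stem cells at the crypt base. Its reporter protein outlives transcription and is diluted as daughters leave the base, so that medium levels mark early progeny of the stem cells. Most of these progeny divide several times as transit-amplifying cells before they become absorptive enterocytes. A smaller share takes the secretory route, which is opened by the transcription factor Atoh1 when Notch signalling is low and leads to goblet, Paneth and enteroendocrine cells, while tuft cells depend on Pou2f3. Ki67 is present in cycling cells and is lost after cells leave the cycle. Sorting on both reporters is meant to separate cells by cycling state at a similar distance from the stem cell. This is the question of the comparison as the sort defines it, and how well the gates did so was not measured.

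The sort genes were read first. Lgr5 measured 7.39, 7.56, 7.29 and 7.32 on the 4 Ki67-high arrays and 8.76 and 8.41 on the 2 Ki67-low arrays (log2 values, probe set 10372503). The Ki67-low arrays thus lay above all Ki67-high arrays although both gates were medium for the Lgr5 reporter, with a difference of 1.2 ± 0.14 (SE; limma adjusted p = 0.000986). Mki67, which encodes Ki67, measured 10.04, 10.18, 10.27 and 9.83 on the Ki67-high arrays and 9.75 and 9.83 on the Ki67-low arrays. The difference of -0.29 ± 0.12 in its transcript did not pass (adjusted p = 0.249), and it passed without Ki67-high replicate 4 (-0.37, adjusted p = 0.0463). The gate was set on the fused protein, which was not measured here. The epithelial adhesion genes Epcam and Cdh1 measured 11.42 and 11.42, and 11.32 and 11.15, on the Ki67-low arrays, against ranges of 11.44 to 11.79 and 10.96 to 11.40 on the Ki67-high arrays. Over all probe sets the array medians lay between 4.23 and 4.40, and the lowest correlation between replicates was 0.985 among the Ki67-high and 0.992 among the Ki67-low arrays. Ki67-high replicate 4 had the lowest limma array weight of the 10, 0.294.

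Of 18820 genes tested, 674 differed between the groups in limma's test at an adjusted p under 0.05, which is 3.58% of them. The changes were unequal in number and size. In Ki67-low cells 499 genes (2.65%) rose, 230 of them at least 2-fold and 48 at least 4-fold, with a median rise of 0.94. Another 175 genes (0.93%) fell, 4 of them at least 2-fold and 0 at least 4-fold, with a median of -0.55. Before adjustment, 2953 genes had a p under 0.05. None of the 674 genes had overlapping values in the 2 groups, while over all genes the arrays did not overlap for 10.5% in the higher and 13.9% in the lower direction. The values were used as deposited, and array medians were 0.13 higher in the Ki67-low arrays although the median difference of all genes was -0.019. With each array centred on its median the calls were 417 higher and 767 lower, so the direction that holds more genes depends on this step.

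Fewer of the lower calls than of the higher calls held in every fit without 1 array. Without a Ki67-low array that group has 1 array, which lowers the precision. A call lost there need not rest on that array's values. Without Ki67-low replicate 1 the counts were 250 higher and 14 lower, and without replicate 2 of that group 468 and 91. Without Ki67-high replicate 2 the lower count was 92, and without either Lgr5-high Ki67-high array it was 111. Leaving out either array of a Lgr5-high group gives the same Lgr5-medium test, because the array that remains adds nothing to the spread. The 10 fits without 1 array are thus not 10 separate checks, and counts of lost calls take such fits in pairs. When only the 6 Lgr5-medium arrays were fitted, 318 genes rose and 55 fell. Of the 499 and 175 genes, 209 and 10 were called whichever of the 10 arrays was left out, and all 674 kept their sign in those fits. The effect of leaving out Ki67-low replicate 1 is therefore given beside the groups of genes that lost calls without it. Nothing in the labels ties a replicate to its own animal or sort, and the p-values therefore rest on the spread among these arrays, part or all of which may be technical.

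The genes were read through 36 lists of known function, whose 1131 entries include 1032 that were measured. Of the 499 genes that rose 156 belonged to at least 1 list, and of the 175 that fell 79 did. Most rises and most falls thus lay outside the lists. Within them, 22 of 47 goblet, 46 of 83 tuft and 48 of 100 enteroendocrine genes rose, and 73 of 128 genes of mitosis fell. The backgrounds are the 2.65% and 0.93% given above. In sorted populations a higher value can come from more cells of a type or from more RNA per cell, which cannot be told apart here.

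**Figure D1:**
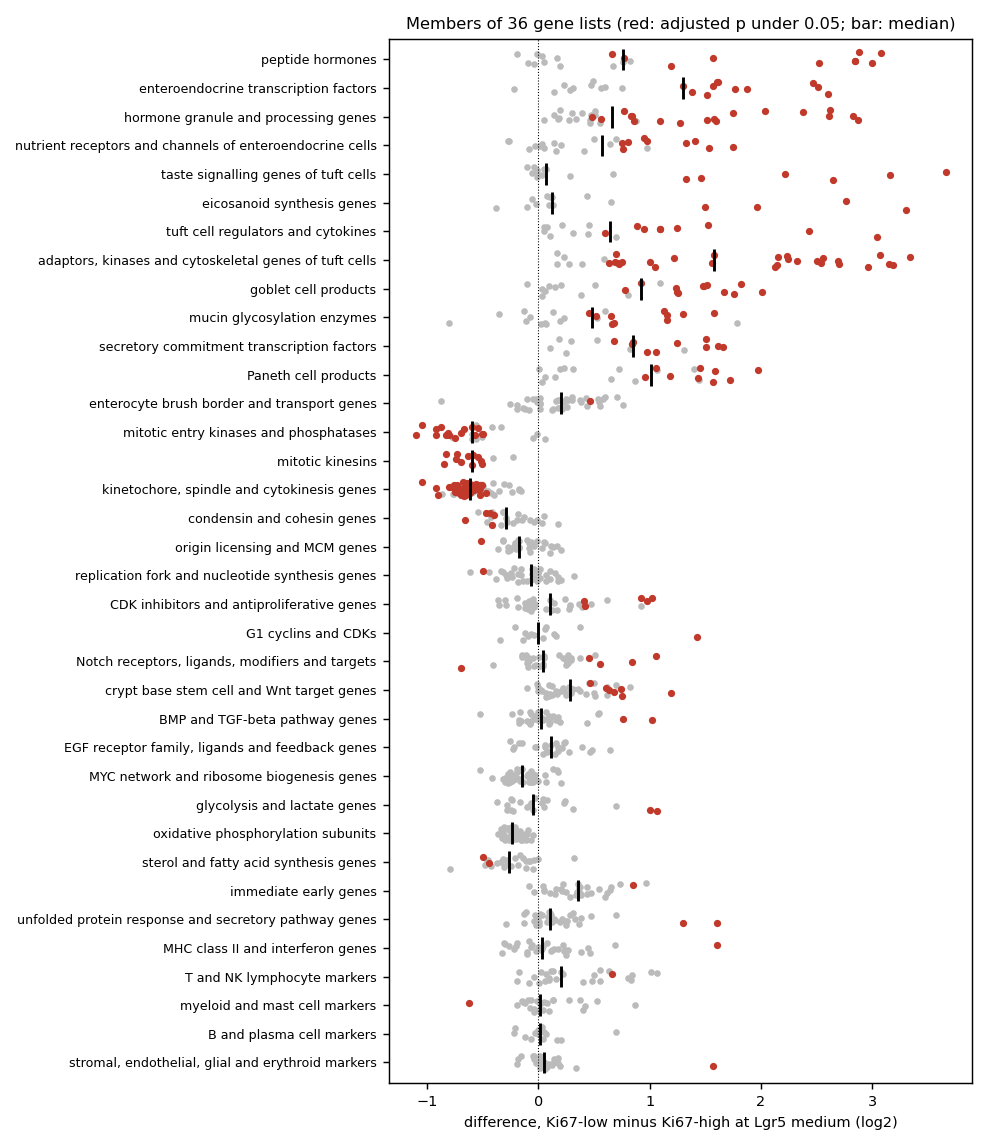
Difference between Ki67-low and Ki67-high cells at Lgr5 medium (log2, horizontal axis) for each measured member of the 36 gene lists (rows). Red points have a limma adjusted p under 0.05, grey points do not, and the black bar is the list's median; the hormone, tuft and goblet rows extend to the right of 0, with medians up to 1.58, and the 3 rows of mitotic genes sit near -0.60.

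Enteroendocrine cells are rare epithelial cells that release peptide hormones and serotonin into the blood in response to food. Peptide hormone genes formed the first group, and 10 of 21 rose, 8 of them at least 2-fold, with a list median of 0.76. Gcg, which encodes proglucagon, the precursor of GLP-1, measured 6.86, 6.91, 5.87 and 7.08 on the Ki67-high arrays and 9.91 and 9.61 on the Ki67-low arrays. Both Ki67-low arrays lay far above the highest Ki67-high array, and the difference was 3.08 ± 0.31 (adjusted p = 0.000405). Ghrl, the gene of the appetite hormone ghrelin, had the smallest p of the list: it measured 7.36, 6.71, 6.63 and 7.24 against 9.66 and 10.08, a rise of 2.88 ± 0.22 (adjusted p = 7.98e-05). Cck (cholecystokinin), Gip (the incretin GIP), Sst (somatostatin) and Tac1 (substance P) rose by 2.52, 2.84, 2.99 and 2.85.

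Some hormones with low values also rose. Nts, the gene of neurotensin, measured 3.14 to 3.70 on the Ki67-high arrays and 4.71 and 5.17 on the Ki67-low arrays, a rise of 1.57 ± 0.19 (limma adjusted p = 0.00129). Sct, the gene of secretin, went from a range of 4.72 to 5.08 to 6.0 and 6.17, a rise of 1.19 ± 0.15 (adjusted p = 0.0014). The called hormones thus included products of cells that are described in the textbooks as separate subtypes, such as the GIP-producing K cell, the somatostatin-producing D cell and the ghrelin-producing X cell. All 10 hormone calls held in each of the 10 fits without 1 array.

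The transcription factors that direct enteroendocrine fate rose as a group, 11 of 21, all 11 at least 2-fold and with the higher list median of 1.30. Neurog3 commits a secretory precursor to this lineage and is expressed only briefly. It measured 5.22, 5.49, 5.63 and 5.44 on the Ki67-high arrays and 7.69 and 6.73 on the Ki67-low arrays, a rise of 1.76 ± 0.23 (adjusted p = 0.00181). Rfx6, which acts downstream of Neurog3, had the smallest p of the group: 4.42 to 4.58 on the Ki67-high arrays against 7.29 and 6.86, a rise of 2.60 ± 0.13 (adjusted p = 1.54e-05). The early and late members of the cascade moved together. Neurod1, Pax4, Pax6, Isl1 and Insm1, which act in differentiation and subtype choice, rose by 2.52, 1.61, 1.52, 2.47 and 1.38. The zinc finger gene St18 rose by 1.87 and the homeobox gene Prox1 by 1.57. Prox1 also stands in the stromal and endothelial list, where it was the 1 member that rose. All 11 calls held in each of the 10 fits without 1 array.

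Genes that build and fill the hormone granule rose next to the hormones, 18 of 34 with a list median of 0.67. Cpe, the carboxypeptidase that trims prohormones, measured 4.07, 4.15, 3.76 and 4.23 on the Ki67-high arrays and 6.65 and 6.69 on the Ki67-low arrays (2.62 ± 0.14, adjusted p = 1.54e-05). The granins Chga and Chgb, matrix proteins of the granule, rose by 2.83 and 2.61, the calcium sensor Scgn by 2.87 and the prohormone convertase Pcsk1 by 1.75. Tph1, the rate-limiting enzyme of serotonin synthesis in the gut, rose by 2.38 ± 0.33 (adjusted p = 0.00272), from a range of 4.51 to 5.98 to 7.52 and 7.92. Serotonin-producing and peptide-producing markers were thus both higher. Without Ki67-low replicate 1, 13 of the 18 calls held.

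Receptors and channels with which these cells sense nutrients rose in 9 of 24 cases, with a median of 0.57. The short-chain fatty acid receptor Ffar3 measured 3.54, 2.81, 3.33 and 3.31 against 4.45 and 4.70 (1.33 ± 0.18, adjusted p = 0.00241). Abcc8, the sulphonylurea receptor of the ATP-sensitive potassium channel, rose by 0.81 ± 0.07 (adjusted p = 0.000255), and the calcium channel gene Cacna1a by 1.41. The irritant channel Trpa1, a marker of serotonin-producing cells, measured 5.0 and 6.03 on the Ki67-low arrays against 3.33 to 4.25 (1.75, adjusted p = 0.0106). Its call was lost without Ki67-low replicate 2 (adjusted p = 0.0858). Of the 9 calls, 6 held without each Ki67-low array in turn.

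Tuft cells are chemosensory cells with a bundle of microvilli that use a taste-like pathway, make eicosanoids and release interleukin 25. Their master regulator Pou2f3 measured 5.16, 4.54, 5.06 and 5.64 on the Ki67-high arrays and 7.37 and 7.69 on the Ki67-low arrays. The groups did not overlap, and the difference was 2.43 ± 0.24 (limma adjusted p = 0.000371). Among 18 regulators and cytokines 9 rose (median 0.65). Spib, an ETS factor, rose by 3.04 ± 0.19 (adjusted p = 5.06e-05), from a range of 4.01 to 4.56 to 7.04 and 7.68. Gfi1b, Runx1 and the interleukin 25 receptor subunit Il17rb rose by 1.09, 1.25 and 1.52. Il25 itself, the cytokine by which tuft cells signal parasite infection, measured 2.78 to 3.09 against 3.16 and 2.95 and did not pass (0.08, adjusted p = 0.8).

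The list of taste signalling genes split into strong rises and no calls: 6 of 17 rose, all 6 at least 2-fold, while the list's median was 0.07. Trpm5, the cation channel at the end of the pathway, measured 5.02, 4.52, 4.76 and 5.39 on the Ki67-high arrays and 7.71 and 8.46 on the Ki67-low arrays (3.16 ± 0.29, adjusted p = 0.000241). Plcb2, the phospholipase before it, and Itpr2, an inositol trisphosphate receptor, rose by 2.65 and 1.46. Rgs13, a regulator of G proteins, had the largest difference of the called genes named here, 3.66 ± 0.62, and also the widest spread: 5.20, 4.25, 4.28 and 6.79 against 8.15 and 9.42. Its call (adjusted p = 0.00963) was lost without Ki67-low replicate 2 (adjusted p = 0.0915). Gnat3, the G protein subunit gustducin, measured 2.07 to 2.50 against 2.65 and 3.24 and did not pass (0.67, adjusted p = 0.0626), but passed without Ki67-low replicate 1 (adjusted p = 0.0237).

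Eicosanoid synthesis was similar, with 4 of 15 genes higher and a median of 0.13. The 4 were the leukotriene branch and 1 prostaglandin enzyme. Alox5, which makes leukotrienes, measured 4.52, 4.45, 4.56 and 5.29 against 7.56 and 8.46 (3.30 ± 0.29, adjusted p = 0.000187). Its activating protein Alox5ap and the leukotriene C4 synthase Ltc4s rose by 2.76 and 1.5, and Hpgds, the synthase of prostaglandin D2, rose by 1.97. Without Ki67-low replicate 1 all 4 of these calls held, as did all 6 of the taste genes and 7 of the 9 of the regulators and cytokines.

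The adaptors, kinases and cytoskeletal genes of tuft cells held the largest share of rises of the 36 lists: 27 of 33 rose, 21 of them at least 2-fold, with a median of 1.58. Dclk1, a microtubule-associated kinase and the most used tuft marker, measured 5.32, 4.79, 4.89 and 5.77 on the Ki67-high arrays and 8.23 and 8.84 on the Ki67-low arrays (3.34 ± 0.27, adjusted p = 0.000118). Pik3r5, a regulatory subunit of phosphoinositide 3-kinase gamma, had the smallest p of all tuft genes: 4.27 to 4.48 against 7.10 and 7.64 (2.96 ± 0.14, adjusted p = 1.31e-05). Several of these genes are better known from leukocytes. Inpp5d, a phosphoinositide phosphatase, and Fyb, an adaptor of lymphocyte adhesion, rose by 2.70 and 3.15. The SH2 adaptors Sh2d6 and Sh2d7, the actin-bundling gene Avil, the filament gene Vim and the receptor adaptor Kctd12 rose by 3.07, 3.19, 2.69, 2.50 and 2.56. Of the 27 calls 22 held without Ki67-low replicate 1 and 23 without replicate 2.

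The leukocyte markers themselves were read beside these genes. Of 27 T and NK lymphocyte markers 1 rose, at a background of 2.65%, with a list median of 0.21. Of the 27, 23 lay above 0, beside 8387 of all 18820 genes. For 7 of them the arrays did not overlap in the higher direction, against 10.5% of all genes. Ptprc, the common leukocyte antigen, measured 4.93, 4.37, 4.25 and 4.81 against 5.03 and 5.77 (0.81, limma adjusted p = 0.145). The list score, which is the mean deviation of the members from their means over the 10 arrays, was highest in Ki67-low replicate 2 (0.39) and Ki67-high replicate 4 (0.17), and was 0.015 in Ki67-low replicate 1. The granzyme gene Gzma was highest on the same 2 arrays, at 7.47 on Ki67-high replicate 4 and 7.15 on Ki67-low replicate 2, and stood at 6.02 on Ki67-low replicate 1. The 1 call, the lymphocyte receptor gene Cd244a (0.66, adjusted p = 0.0426), was lost in 9 of the 10 fits without 1 array. The same score over all tuft genes was -0.27, -0.42, -0.35 and -0.19 on Ki67-high replicates 1 to 4. On Ki67-low replicates 1 and 2 it was 0.73 and 0.96. Within each group the tuft score was thus highest on the array with the highest lymphocyte score. The part of lymphocytes in the result was not tested.

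**Figure D2:**
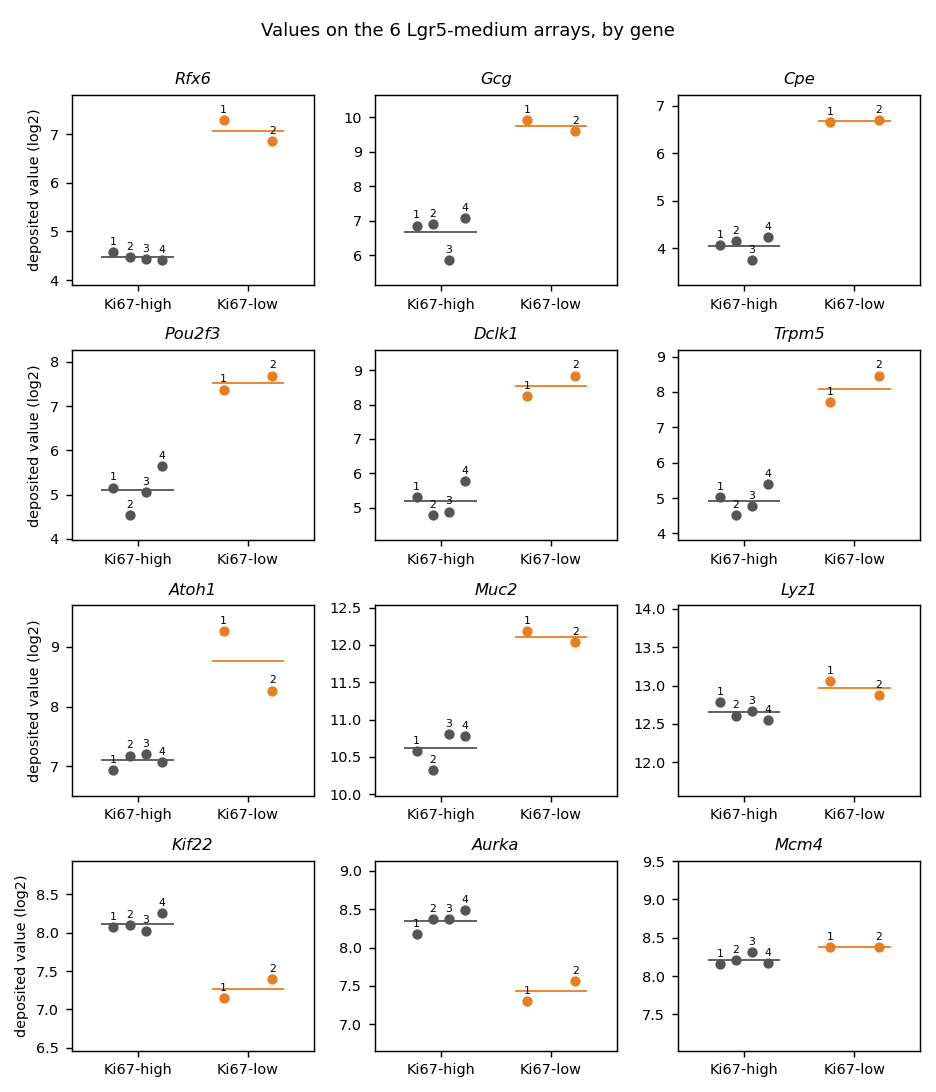
Deposited log2 values (vertical axis, not starting at 0 and with its own range in each panel) of 12 genes on the 4 Ki67-high and 2 Ki67-low arrays at Lgr5 medium. Points are arrays with their replicate number and lines are group means; the secretory and tuft genes in the upper 3 rows lie higher in Ki67-low cells, with Lyz1 as a small difference that did not pass, and Kif22 and Aurka lie lower while the mean of Mcm4 lies 0.17 higher without passing.

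Goblet cells secrete the mucus layer. Of 23 goblet cell products 12 rose, 10 at least 2-fold, with a median of 0.93. Muc2, the main gel-forming mucin, was already abundant in Ki67-high cells: it measured 10.58, 10.32, 10.81 and 10.78 there and 12.19 and 12.04 in Ki67-low cells (1.49 ± 0.15, adjusted p = 0.000466). Clca1, Tff3 and Spink4, which are secreted with the mucin, rose by 1.48, 0.93 and 1.25. The goblet genes with the smallest p were intracellular. Bcas1 measured 5.51 to 5.70 against 7.48 and 7.17 (1.76 ± 0.10, adjusted p = 2.74e-05), and the protease Capn9 rose by 2.01 ± 0.14 (adjusted p = 6.21e-05). Guca2a, the gene of the peptide guanylin, rose by 1.82.

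Mucins carry dense O-linked sugars, and 10 of 24 glycosylation enzymes rose as well (median 0.49). The branching enzyme Gcnt3 measured 6.50, 6.16, 6.6 and 6.23 against 8.29 and 7.61 (1.58 ± 0.18, adjusted p = 0.00105). Galnt12, which starts O-glycans, rose by 1.13 and the sulphotransferase Chst4 by 1.16. Without Ki67-low replicate 1, 10 of the 12 calls for goblet products and 4 of the 10 for glycosylation enzymes held, and the call of Chst4 was lost (adjusted p = 0.0636). The glycosylation count was 6 without either Lgr5-high Ki67-high array.

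Transcription factors of secretory commitment rose in 10 of 17 cases, with a median of 0.85. Atoh1 measured 6.94, 7.18, 7.21 and 7.08 on the Ki67-high arrays and 9.26 and 8.26 on the Ki67-low arrays. Both Ki67-low arrays lay above the Ki67-high range, and they differed from each other more than the Ki67-high arrays did (1.66 ± 0.22, adjusted p = 0.00206). Spdef, which acts in goblet and Paneth maturation, and Creb3l4 rose by 1.5 and 1.51, from 6.75 to 7.02 and 6.20 to 6.56 up to 8.8 and 8.01 and to 8.39 and 7.51. Foxa3 and Bhlha15 rose by 1.24 and 0.98. Of these 10 calls 4 held without Ki67-low replicate 1, and those of Foxa3 (adjusted p = 0.0569) and Bhlha15 (adjusted p = 0.0503) were lost. The fewest in a fit that left out 1 other array was 6.

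Notch signalling keeps neighbours of secretory precursors in the absorptive programme. Of 33 Notch genes 4 rose (12.1%, beside 2.65% of all genes) and 1 fell (3.03%, beside 0.93%), and the list median was 0.04. Among the ligands, Dll1 measured 6.38, 6.74, 6.86 and 6.66 against 7.90 and 7.10 (0.84 ± 0.20, adjusted p = 0.0483) and Dll4 rose by 1.06 (adjusted p = 0.029). The modifier Lfng, a glycosyltransferase that tunes the receptor, rose by 0.56 (adjusted p = 0.0339), and the fourth was Neurl1a, a ubiquitin ligase (0.46, adjusted p = 0.0366). Nrarp, a feedback gene that is transcribed when Notch is active, moved the other way: 7.06, 7.27, 7.27 and 6.96 against 6.41 and 6.50 (-0.69 ± 0.11, adjusted p = 0.00592). All 5 calls were lost without Ki67-low replicate 1, where Dll1 stood at 0.44 (adjusted p = 0.436), Dll4 at 0.54 (adjusted p = 0.131), Lfng at 0.51 (adjusted p = 0.31) and Nrarp at -0.65 (adjusted p = 0.0907). The call of Dll1 was lost in 9 of the 10 fits without 1 array, that of Lfng in 7 and that of Dll4 in 5. The count of rises was 0 without either Lgr5-high Ki67-high array, 2 without either Lgr5-high Ki67-low array, 1 without Ki67-high replicate 1 or 2, 2 without replicate 3 and 2 without Ki67-low replicate 2. With arrays centred it was 1 and the list median was -0.09.

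Paneth cells sit among the stem cells and secrete antimicrobial proteins. Of 22 Paneth cell products 9 rose, with a median of 1.01. Reg4, a lectin of deep crypt secretory cells, measured 10.82, 10.05, 9.66 and 10.45 against 12.07 and 11.59 (1.59 ± 0.28, adjusted p = 0.0119). Mptx1, a pentraxin, measured 4.83, 5.82, 5.45 and 5.77 against 8.20 and 6.69 (1.98 ± 0.38, adjusted p = 0.0171). Wnt3, the Wnt ligand of Paneth cells, and the angiogenin Ang4 rose by 1.19 (adjusted p = 0.0442) and 1.06 (adjusted p = 0.0365). Lyz1, the lysozyme that marks mature Paneth cells, measured 12.55 to 12.79 against 13.06 and 12.88 and did not pass (0.32, adjusted p = 0.113). Of these 9 calls 0 held in all 10 fits without 1 array. Without Ki67-low replicate 1, Reg4 stood at 1.35, Mptx1 at 1.22, Wnt3 at 0.66 and Ang4 at 0.69. In the fit of the 6 Lgr5-medium arrays alone the count of Paneth calls was 0. It was 3 when either Lgr5-high Ki67-high array was left out and 4 when either Ki67-low array of that level was. Leaving out Ki67-high replicates 2, 3 and 4 gave 3, 5 and 5. The calls of Wnt3 and Ang4 were lost in 9 and 6 of the 10 fits without 1 array.

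Absorptive genes were nearly all uncalled. Of 42 enterocyte brush border and transport genes 1 passed, at a background of 2.65%, and the list median was 0.20. That gene was Cdhr5, an adhesion protein between microvilli, with 9.73, 9.57, 9.55 and 9.55 against 10.11 and 10.03 (0.47 ± 0.09, adjusted p = 0.0237), and its call was lost in 4 of the 10 fits without 1 array, those without Ki67-high replicate 2 (adjusted p = 0.0676) or 3 (adjusted p = 0.0586) or either Ki67-low array (adjusted p = 0.253 and 0.0852). The aminopeptidase Anpep measured 11.26 to 11.61 against 11.64 and 11.79 (0.27, adjusted p = 0.348). The list score ranged from -0.35 to 0.42 among the Ki67-high arrays alone, which takes in the 0.081 of Ki67-low replicate 1, and was 0.50 in replicate 2.

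Genes of mitosis held the most falls of the listed families. In the 4 mitotic lists 73 of 128 genes fell and 0 rose, with a median of -0.57. The sizes were small beside the rises described so far: the largest called fall was that of Cdkn3, -1.10. Entry into mitosis is driven by cyclin B with Cdk1, which the phosphatase Cdc25c switches on, and by the Aurora and Polo kinases. Of 27 such kinases, cyclins and phosphatases 16 fell (median -0.60). Aurka, the Aurora kinase of spindle poles, measured 8.17, 8.37, 8.38 and 8.49 on the Ki67-high arrays and 7.30 and 7.56 on the Ki67-low arrays (-0.92 ± 0.12, adjusted p = 0.00162). Cdc25c measured 6.22, 6.50, 6.30 and 6.61 against 5.10 and 5.63 (-1.05 ± 0.17, adjusted p = 0.00764). Plk1, Ccnb2, Ccna2, Melk, Nek2 and Bub1 fell, with differences of -0.75, -0.81, -0.60, -0.92, -0.87 and -0.83. Cdk1 itself measured 9.96 to 10.66 against 9.20 and 9.63 and did not pass (-0.78, adjusted p = 0.0585), but passed without Ki67-high replicate 4 (adjusted p = 0.0273).

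Motors and attachments of the spindle fell as well. Of 13 mitotic kinesins 11 fell (median -0.59). Kif22, a chromosome-arm motor, measured 8.07, 8.10, 8.03 and 8.26 against 7.15 and 7.39 (-0.85 ± 0.10, adjusted p = 0.00135), and the microtubule depolymerase Kif2c and the bipolar spindle motor Kif11 fell, with differences of -0.83 and -0.54. Of 63 kinetochore, spindle and cytokinesis genes 41 fell (median -0.62). Birc5, or survivin, a subunit of the chromosomal passenger complex, had the smallest p of the mitotic lists: 7.89, 7.96, 7.95 and 7.80 against 7.16 and 7.25 (-0.70 ± 0.08, adjusted p = 0.00108). The spindle protein Ckap2l measured 7.95 to 8.18 against 7.35 and 7.37 (-0.71 ± 0.09, adjusted p = 0.00154). Hmmr, the activator of the anaphase-promoting complex Cdc20, the centromeric histone Cenpa and the checkpoint ATPase Trip13 fell, with differences of -1.04, -0.80, -0.90 and -0.58. Other large falls were those of Shcbp1 and Iqgap3, which act in cytokinesis, at -0.92 and -0.78, the spindle genes Dlgap5 and Knstrn at -0.76 and -0.75, the kinetochore gene Cenpf at -0.74, the kinesin Kif18a at -0.74 and the cyclin Ccnf at -0.80.

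Condensin and cohesin genes, which shape chromosomes, fell in 5 of 25 cases, with a median of -0.29. The 5 were Smc2, Smc4, Ncaph, Ncapg and the chromatin protein Hmgb2, at -0.43, -0.40, -0.41, -0.66 and -0.47. Top2a, the topoisomerase that untangles sister chromatids, measured 9.88 to 10.09 against 9.42 and 9.69 (-0.41, adjusted p = 0.0544), and passed without Ki67-low replicate 2 (adjusted p = 0.0402). All 5 calls were lost without Ki67-low replicate 1, where their adjusted p-values were 0.119 for Smc2, 0.363 for Smc4, 0.183 for Ncaph, 0.438 for Ncapg and 0.405 for Hmgb2, and without replicate 2 none of the 5 was called either. Leaving out 1 Lgr5-high array gave a count of 2, as did leaving out Ki67-high replicate 2 or 3, and leaving out replicate 4 gave 8.

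Leaving out a Ki67-low array leaves 1 array in the group, so a lost call need not mean a changed difference. Without Ki67-low replicate 1, Plk1 stood at -0.77 beside -0.75 with all arrays, and Bub1 at -0.57 beside -0.83. Most mitotic calls were lost without Ki67-low replicate 1. Without it 7 of the 73 genes were called, Aurka, Kif22, Birc5 and Ckap2l among them, and without replicate 2 of that group 44 of the 73 were. Without Ki67-high replicate 2 it was 48, and with only the 6 Lgr5-medium arrays fitted it was 36. Among the genes named here the calls of Cdc25c (adjusted p = 0.112), Ccnb2 (0.115), Ccna2 (0.0697), Melk (0.0555), Nek2 (0.209), Bub1 (0.2), Kif2c (0.0587), Kif11 (0.138), Hmmr (0.058), Cdc20 (0.0839), Cenpa (0.115) and Trip13 (0.106) were lost without replicate 1. So were those of Shcbp1 (0.0985), Ccnf (0.0994), Dlgap5 (0.0833) and Knstrn (0.195), and those of Iqgap3, Kif18a and Cenpf were lost in 8, 8 and 5 of the 10 fits (highest adjusted p = 0.208, 0.377 and 0.348). Plk1 was lost without either Ki67-low array (adjusted p = 0.139 and 0.102), and Cdkn3 was lost in 6 of the 10 fits (highest adjusted p = 0.408). The mitosis family score was -0.46 and -0.31 on Ki67-low replicates 1 and 2 and between 0.078 and 0.18 on the Ki67-high arrays, so both Ki67-low arrays lay below all Ki67-high arrays.

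Genes that peak in mitosis are known to share promoter elements, the cell cycle homology region and repeated CCAAT boxes. Through the homology region they are repressed in resting cells. The RefSeq promoter windows of assembly GRCm38.p6, from 250 bases before to 50 bases after a gene's start, were searched on both strands for TTTGAA, the core of the homology region, and for CCAAT. Of the 73 genes that fell 63 had a window, and the 68 windows of these genes held TTTGAA in 69.1% of cases, against 17.9% of all 32851 windows, 22.2% of the 108 windows of other genes that fell, and 38.3% of the 47 windows of mitotic genes that were not called. The windows of S phase genes held it in 16.2%. CCAAT was in 67.6% of the windows of fallen mitotic genes, 72.3% of those of uncalled mitotic genes and 37.4% of all windows, and both motifs were in 52.9% against 6.95% of all windows. A match is a description of the letters and not a site of binding.

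The 3 mitotic genes with the smallest p are shown, by a rule on p alone. The windows of the tuft genes Pik3r5 and Kctd12 and the hormone genes Ghrl and Cck, drawn by the same rule, are not printed here. The 3 mitotic genes include both outcomes of the search. The windows run 5′ to 3′ on the gene's strand, and capitals mark TTTGAA and CCAAT on either strand (TTCAAA and ATTGG on the other). Kif22 lies at chr7:127042371-127042670 on the minus strand, Ckap2l at chr2:129297163-129297462 on the minus strand and Birc5 at chr11:117848987-117849286 on the plus strand.
Kif22: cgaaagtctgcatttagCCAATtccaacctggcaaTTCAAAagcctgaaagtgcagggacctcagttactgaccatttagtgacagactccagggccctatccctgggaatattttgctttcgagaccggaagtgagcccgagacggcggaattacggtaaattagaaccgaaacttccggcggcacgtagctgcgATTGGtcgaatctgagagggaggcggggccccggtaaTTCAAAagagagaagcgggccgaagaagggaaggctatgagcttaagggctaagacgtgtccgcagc
Ckap2l: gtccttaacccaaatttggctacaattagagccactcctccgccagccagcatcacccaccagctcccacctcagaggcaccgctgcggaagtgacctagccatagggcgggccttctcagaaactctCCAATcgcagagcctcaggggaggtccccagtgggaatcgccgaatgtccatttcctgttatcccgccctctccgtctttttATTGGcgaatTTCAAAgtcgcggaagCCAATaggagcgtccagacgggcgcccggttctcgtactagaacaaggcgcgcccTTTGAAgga
Birc5: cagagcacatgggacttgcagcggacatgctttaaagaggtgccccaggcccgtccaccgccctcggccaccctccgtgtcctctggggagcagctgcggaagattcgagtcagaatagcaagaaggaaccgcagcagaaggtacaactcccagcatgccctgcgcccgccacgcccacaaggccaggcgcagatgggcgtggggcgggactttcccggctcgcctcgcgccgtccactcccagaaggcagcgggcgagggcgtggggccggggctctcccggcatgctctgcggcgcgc
In Kif22 the letters of the homology region begin 17 bases before the start, with a CCAAT box 54 bases before it, and the pair occurs once more at 215 and 233 bases. In Ckap2l the region begins 30 bases before and 41 bases after the start, with CCAAT boxes at 14, 40 and 122 bases before it. The Birc5 window holds neither, which says only that these letters are not in it.

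Matches in the windows of fallen mitotic genes clustered at the start of the gene. In 41.2% of the 68 windows TTTGAA began within the 25 bases before or the first 25 bases of the gene, against 2.65% of all windows. In the interval from 75 to 51 bases before the start, none of the 68 windows had a match, against 1.49% of all windows. Another interval, farther before the start, was empty as well. At so low a background, an empty interval among 68 windows does not show a gap.

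**Figure D3:**
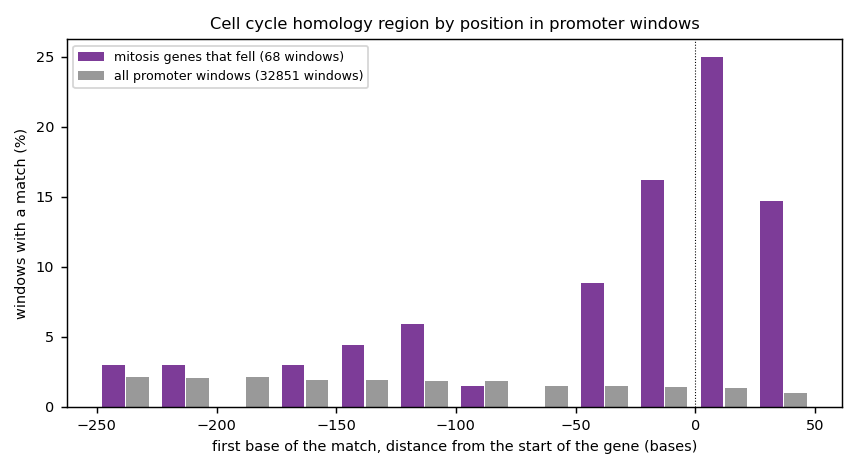
Share of promoter windows (percent, vertical axis) in which a match to the cell cycle homology region begins in each 25-base interval, by distance from the start of the gene (bases, horizontal axis). Purple bars are the 68 windows of mitotic genes that fell and grey bars all 32851 windows; the purple bars reach 25% in the first 25 bases of the gene, where the grey bar is at 1.31%.

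The other searches gave shares nearer the background. The octamer ATGCAAAT, the kind of element that POU factors such as Pou2f3 bind, was in 4.17% of the 48 windows of tuft genes that rose, or 2 windows, against 1.74% of all windows. The E-box CAGATG, to which NeuroD-type factors bind, was in 25.5% of the 47 windows of enteroendocrine genes that rose and in 22.9% of those of tuft genes that rose, against 17.2% of all windows.

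Fewer DNA synthesis genes passed than genes of mitosis. Of 69 S phase genes 2 fell (2.9%, beside 0.93% of all genes) and 0 rose, with a median of -0.10. Dbf4, which activates a kinase of replication origins, measured 8.01, 8.04, 8.07 and 8.25 against 7.66 and 7.49 (-0.52 ± 0.09, adjusted p = 0.0136), and the histone chaperone Asf1b fell by 0.50 (adjusted p = 0.0325). Mcm4, a subunit of the replicative helicase, measured 8.15, 8.21, 8.32 and 8.17 against 8.38 and 8.38, slightly above the Ki67-high range (0.17, adjusted p = 0.371). The call of Dbf4 was lost without Ki67-low replicate 1 (adjusted p = 0.0523) or 2 (adjusted p = 0.12), and that of Asf1b in 8 of the 10 fits without 1 array (highest adjusted p = 0.294). With arrays centred on their medians 2 of the 31 origin genes and 6 of the 38 replication fork and nucleotide genes fell.

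Genes of cell cycle exit rose in part. Of 35 CDK inhibitors and antiproliferative genes 5 rose (14.3%, beside 2.65% of all genes), with a median of 0.11 that turned to -0.025 with arrays centred. Cdkn1c, the CDK inhibitor p57, measured 4.62, 4.53, 4.62 and 4.55 against 5.75 and 5.45, well clear of a narrow Ki67-high range (1.02 ± 0.16, adjusted p = 0.00562). Ndrg1, a differentiation-linked gene, measured 8.4 to 8.65 against 9.55 and 9.28 (0.93 ± 0.12, adjusted p = 0.00196). The stress-responsive genes Gadd45a and Trp53inp1 rose by 0.42 and 0.98, and Mxd4, an antagonist of MYC, by 0.41. Ndrg1 was the 1 call of the 5 that held without Ki67-low replicate 1, where Cdkn1c (adjusted p = 0.0988), Gadd45a (0.218), Trp53inp1 (0.129) and Mxd4 (0.414) were lost, and Mxd4 was lost in 8 of the 10 fits. Among 14 G1 cyclins and CDKs 1 passed, the little-studied cyclin Ccnj, which rose by 1.43 ± 0.18 (adjusted p = 0.00155) from 5.72 to 6.0 up to 6.95 and 7.68.

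Stem cell and Wnt target genes rose in 7 of 43 cases (16.3%, beside 2.65% of all genes; median 0.29), Lgr5 itself the largest. Rgmb, a BMP co-receptor, measured 8.36, 8.07, 8.04 and 7.82 against 8.88 and 8.62 (0.68 ± 0.15, adjusted p = 0.0394). Igfbp4, Nkd1, an inhibitor of Wnt signalling that Wnt induces, Msi1, an RNA-binding protein, Sorbs2 and the chloride transporter Slc12a2 rose by 0.61, 0.75, 0.74, 0.64 and 0.46. The stem cell genes Olfm4, Smoc2 and Ascl2 did not pass (0.22, 0.27 and 0.46, adjusted p = 0.305, 0.2 and 0.22), although Ascl2 passed without Ki67-high replicate 4 (adjusted p = 0.0243). Lgr5 was the 1 call of the 7 that held without Ki67-low replicate 1, where Rgmb (adjusted p = 0.395), Igfbp4 (0.277), Nkd1 (0.285), Msi1 (0.332), Sorbs2 (0.177) and Slc12a2 (0.172) were lost, and 3 of the 7 held without replicate 2. The count was 3 without Ki67-high replicate 2 and 4 without replicate 3, and the list median was 0.16 with arrays centred.

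Other pathways held 2 calls, both among BMP and TGF-beta genes (5.56% of that list, beside 2.65% of all genes). Of 36 BMP and TGF-beta genes 2 rose: Id4, a helix-loop-helix inhibitor, by 0.76 (adjusted p = 0.000711), and the pseudoreceptor Bambi by 1.02 (adjusted p = 0.0402), which lost its call in 8 of the 10 fits without 1 array (highest adjusted p = 0.425). None of 25 EGF receptor family genes passed in limma's test, at 3.58% for either direction.

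Of 144 metabolic and biosynthetic genes 2 rose and 2 fell, 1.39% each, beside 2.65% and 0.93% of all genes. Among 48 subunits of oxidative phosphorylation 0 passed, with a median of -0.23. Among 47 genes of the MYC network and ribosome biogenesis 0 passed, with a median of -0.15, beside a median of -0.019 over all genes. All 48 subunits and 41 of the 47 genes lay below 0, beside 10433 of all 18820 genes. The arrays did not overlap, in the lower direction, for 23 of the 48 subunits and for 17 of the 47 ribosome biogenesis genes, against 13.9% of all genes. Of 26 sterol and fatty acid synthesis genes 25 lay below 0. In that list 2 genes (7.69%) fell: the sterol dehydrogenase Nsdhl by 0.49 (adjusted p = 0.0164) and the epoxidase Sqle by 0.44 (adjusted p = 0.049). Nsdhl was lost without Ki67-high replicate 2 (adjusted p = 0.0517) and without either Ki67-low array (adjusted p = 0.093 and 0.125), and Sqle in 9 of the 10 fits (highest adjusted p = 0.303). In glycolysis 2 of 23 rose. The hexokinase Hk1 measured 4.36, 4.26, 4.27 and 4.10 against 5.23 and 5.28 (1.01 ± 0.11, adjusted p = 0.000612). Pfkfb3, which makes the activator of phosphofructokinase, rose by 1.07 and lost its call without either Ki67-low array (adjusted p = 0.0621 and 0.0886).

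Of 70 stress genes 3 rose, 4.29% beside 2.65% of all genes. Of 39 genes of the unfolded protein response and secretory pathway 2 rose. Ern2, the endoplasmic reticulum stress sensor restricted to mucus-secreting epithelia, measured 7.01, 6.70, 7.09 and 6.65 against 8.93 and 8.0 (1.6 ± 0.23, adjusted p = 0.0042), and the retrieval receptor Kdelr3 rose by 1.30, a call lost without Ki67-low replicate 1 (adjusted p = 0.0667). Of 31 immediate early genes, which respond to tissue dissociation, 1 rose: Klf4, which is also a goblet cell factor, by 0.85 (adjusted p = 0.0419), and this call was lost in 9 of the 10 fits (highest adjusted p = 0.327). The list median was 0.36, and its score was 0.61 in Ki67-low replicate 1 and -0.18 in replicate 2, against a range from -0.68 to 0.30 over the Ki67-high arrays.

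Markers of cells that a gate on epithelium could still hold were called about as seldom as all genes, of which 3.58% were called in either direction. Calls alone do not describe a shift, and the lymphocyte list leaned higher, as given above. The myeloid and mast cell list had 1 call among 25, the integrin Itgam, which fell by 0.62 (adjusted p = 0.0285) and lost its call in 6 of the 10 fits (highest adjusted p = 0.31). B and plasma cell markers had 0 of 14, with a median of 0.020, and the 26 stromal, endothelial, glial and erythroid markers had Prox1 alone. The endothelial marker Pecam1 measured 2.69 to 2.87 against 2.94 and 3.0. Among 32 MHC class II and interferon genes 1 rose, the antiviral enzyme Oas2, by 1.61 (adjusted p = 0.00886), with a single high Ki67-high array: 4.45, 5.45, 4.55 and 4.39 against 6.30 and 6.33. Its call was lost without either Ki67-low array (adjusted p = 0.0922 and 0.0578). The part of these cells in the differences was not tested.

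A few of the most changed genes stood in no list. Among the genes that rose, Nebl, an actin-binding protein, measured 3.94, 3.55, 3.77 and 4.10 against 6.42 and 6.99 (2.86 ± 0.20, adjusted p = 6.81e-05), and Lrmp, a membrane protein of the endoplasmic reticulum, rose by 2.69. Among those that fell, Efcab11 (-1.01), the Toll-like receptor Tlr1 (-0.81), the helicase Pif1 (-0.80), the imprinted gene Phlda2 (-0.79) and the phosphatase inhibitor Cip2a (-0.78) ranked with the mitotic genes. Tlr1 measured 6.88, 6.82, 7.01 and 7.10 against 6.08 and 6.21 (adjusted p = 0.00166), and Phlda2 6.94, 7.04, 6.85 and 7.05 against 6.28 and 6.09 (adjusted p = 0.00148), both with no overlap. The calls of Efcab11 (adjusted p = 0.232), Pif1 (0.432) and Cip2a (0.343) were lost without Ki67-low replicate 1, the latter pair also in 7 and 3 of the other fits without 1 array.

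The same contrast among Lgr5-high cells, which uses other arrays, was set beside these results, and the difference between the contrasts was tested with the interaction. It passed for 196 genes (1.04%). For 194 of them (1.03%) the Ki67-low value was higher, relative to Ki67-high, at Lgr5 medium than at Lgr5 high, and for 2 (0.0106%) it was lower. Of the 499 genes that rose at Lgr5 medium, 189 were among the 194. The difference at Lgr5 medium is part of the interaction, so genes with a large rise there are favoured to pass in this direction. Enteroendocrine genes made up 40 of the 194, of 100 measured, tuft genes 28 of 83 and goblet genes 14 of 47. The medians of these families at Lgr5 high were -0.12, -0.012 and -0.062, beside -0.0064 over all genes, so that of the tuft genes was near the background. At Lgr5 medium they were 0.72, 0.71 and 0.60.

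Pik3r5 shows how the contrasts differed. Its difference was 2.96 at Lgr5 medium and -0.09 at Lgr5 high, and the gap of 3.05 passed (limma adjusted p = 0.0003). For Ghrl the differences were 2.88 and -1.0, with a gap of 3.88 (adjusted p = 0.00067), and for Bcas1 1.76 and -0.35, with a gap of 2.10 (adjusted p = 0.00033). None of the 22 Paneth genes passed this limma test, against 1.04% of all genes, although their gap was not smaller. As coded, Lgr5 high minus Lgr5 medium, the list's median gap was -1.30, beside -0.74, -0.72 and -0.62 for the enteroendocrine, tuft and goblet families. The Paneth median at Lgr5 high was -0.18.

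The mitosis family had a median below 0 at both Lgr5 levels. No fall of a mitotic gene named here passed at Lgr5 high by itself (lowest limma adjusted p = 0.913, for Cenpf). The median of the 128 genes was -0.57 at Lgr5 medium and -0.17 at Lgr5 high, and 1 gene passed the interaction. This was Trip13, at -0.58 at Lgr5 medium and 0.19 at Lgr5 high (gap -0.77, adjusted p = 0.029). The other gene in that direction was the retinol dehydrogenase pseudogene Rdh18-ps, at 0.45 and 1.64 (gap -1.19, adjusted p = 0.024). The stem cell list had nearly equal medians, 0.29 and 0.32, with 0 genes past the interaction. Fewer genes passed the interaction without 1 Lgr5-high array: 79 and 117 without Ki67-high replicates 1 and 2, and 86 and 124 without Ki67-low replicates 1 and 2.

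**Figure D4:**
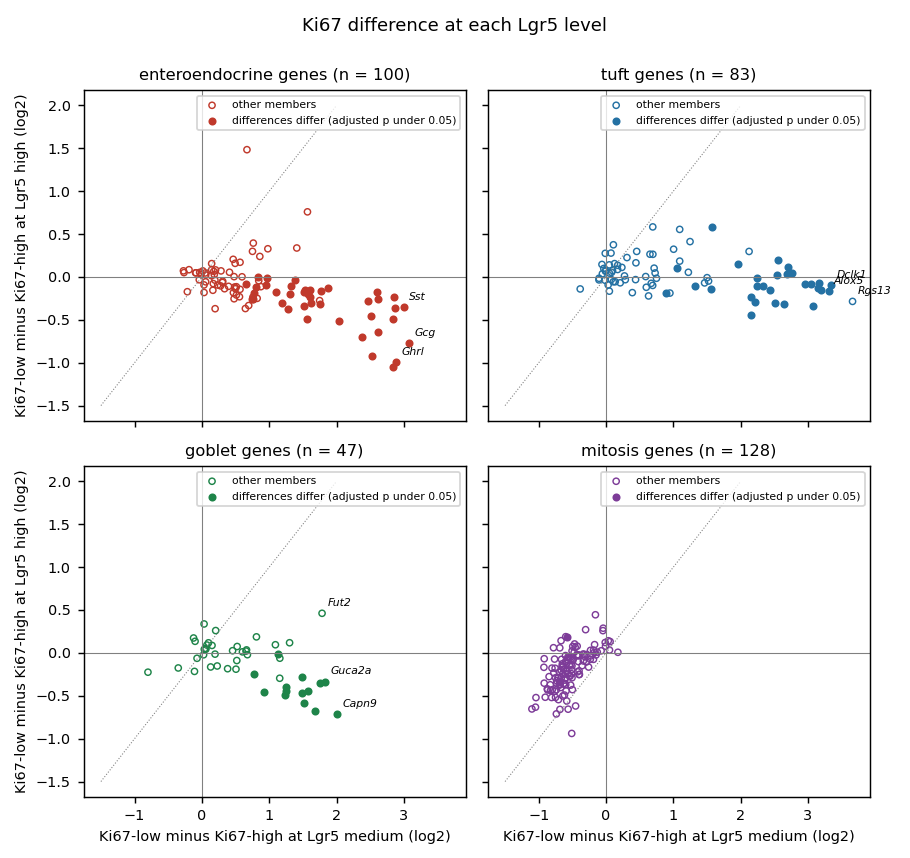
Difference between Ki67-low and Ki67-high cells at Lgr5 medium (horizontal axis, log2) and at Lgr5 high (vertical axis, log2) for the genes of 4 families; the 2 axes share no array. Filled points are genes whose differences differ between the Lgr5 levels (limma interaction, adjusted p under 0.05) and the dotted line marks equal differences; filled points lie at the right, near or below 0 on the vertical axis, for 40 enteroendocrine, 28 tuft and 14 goblet genes, while mitotic genes lie to the lower left with 1 filled point.

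The 2 Ki67-low arrays were not alike in the kind of secretory gene that was high. All 10 called secretory commitment factors and all 9 called Paneth genes were higher on replicate 1, by medians of 0.80 and 1.06, as were 11 of the 12 called goblet products and 9 of the 11 called enteroendocrine transcription factors. All 6 called taste genes and all 4 called eicosanoid genes were higher on replicate 2, by medians of 0.56 and 0.85, as were 19 of the 27 called tuft adaptors and cytoskeletal genes. Over all genes 9062 were higher on replicate 2 and 9757 on replicate 1. Tuft regulators and cytokines were split 6 to 3 with a median of 0.026. Of the called peptide hormones 7 of 10 were higher on replicate 2, by a median of 0.10, and of the called granule genes 9 of 18.

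Mitotic genes were mostly higher on replicate 2, as were 133 of all 175 genes that fell, while 324 of the 499 genes that rose were higher on replicate 1. Of the called mitotic members, all 11 kinesins and 36 of the 41 kinetochore and spindle genes were higher, and thus closer to the Ki67-high level, on replicate 2. For example Aurka stood at 7.30 on replicate 1 and 7.56 on replicate 2, where Atoh1 stood at 9.26 and 8.26 and Trpm5 at 7.71 and 8.46. With 2 arrays in the group, these are descriptions with no test.

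**Figure D5:**
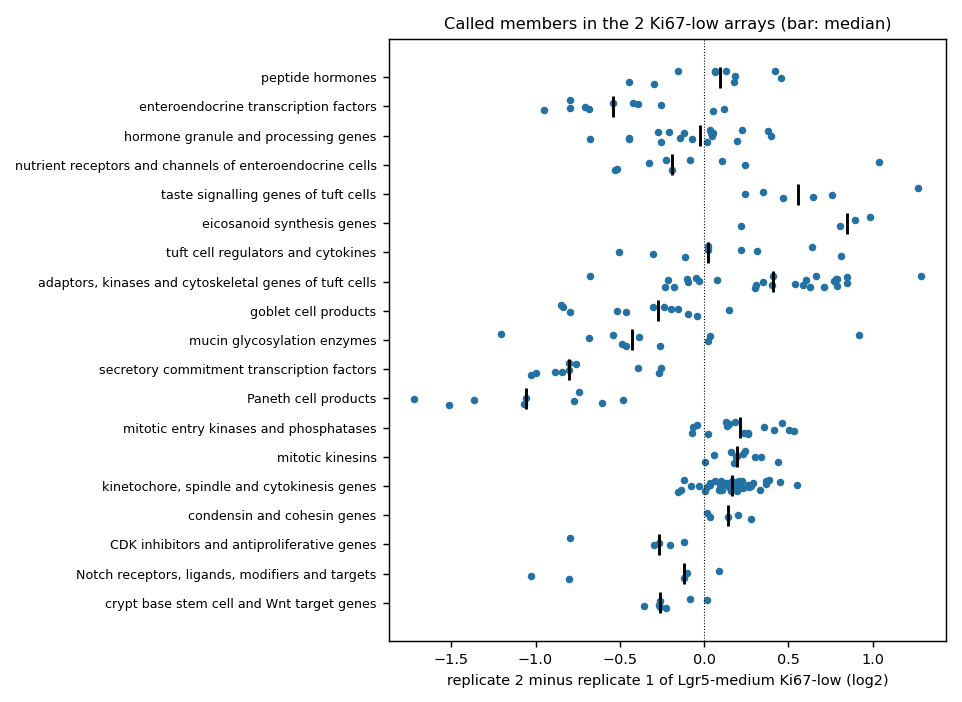
Difference between the 2 Lgr5-medium Ki67-low arrays, replicate 2 minus replicate 1 (log2, horizontal axis), for the called members of each list with at least 4 of them. Points are genes and bars are list medians, which run from -1.06 in Paneth cell products to 0.85 in eicosanoid synthesis genes.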

How the data were processed

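Gene expression was measured on 10 single-colour Affymetrix Mouse Gene ST 1.1 arrays, and the deposited value table has 35556 probe sets. MAS5 and GCOS appear, with no version or role, in the submitters' processing notes. How the values were normalized, and to which log base, is not stated in these sources. Values as deposited ran from 1.16 to 13.76 and were read as log2. Probe sets were named through GEO's platform annotation: 21218 had 1 symbol, 1881 had several and 12457 were unnamed. Of the named ones 21185 matched RefSeq. For the 1386 genes with several probe sets the one with the highest mean was used, which left 18820 genes.

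limma 3.58.1 (R 4.3.3) fitted 1 mean per group over all 10 arrays with 6 residual degrees of freedom, and p-values were adjusted by the Benjamini-Hochberg method over all genes, with 0.05 as the threshold. The 4 groups had 2, 2, 4 and 2 arrays, and this number limits the precision. Standard errors of a difference had a median of 0.11. Groups were taken from the sample labels. The script was tested on simulated data.

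The comparison, the 36 gene lists and the motifs were chosen with earlier results of these data known, and support nothing by themselves. Genes were named by rule: the 25 largest called differences in each direction, Lgr5, Mki67, the extreme interactions and, from each list, some of the 8 members with the smallest p. The genes Neurog3, Tph1, Il25, Lyz1, Cdk1, Olfm4, Smoc2, Ascl2, Gzma, Epcam and Cdh1 and those under other observations were picked with their values in view.

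The alternatives were the 6 Lgr5-medium arrays alone, arrays centred on their medians, quantile normalization, omission of the dimmest 30% of genes, array weights, a replicate block, the mean of probe sets, an intensity trend and each array left out. A block with crossed numbers was added after seeing the data. Promoter sequences are those of RefSeq; a gene can have several windows.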

Additional observations from a re-analysis of the deposited data

Results flagged for a closer look

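The difference between Ki67-low and Ki67-high cells was itself different at the 2 Lgr5 levels, by limma's interaction, for 73 of 171 genes named. Over all genes the share was 1.04%. Most of the 171 were named for a large difference or a small p at Lgr5 medium. That difference is part of the interaction, so the choice of genes raises their share. The values below are the difference at Lgr5 medium minus that at Lgr5 high (log2), 2 arrays per group at Lgr5 high. Among hormones the gaps of Ghrl, Cck, Gcg, Gip, Nts, Sct, Sst and Tac1 were 3.88, 3.45, 3.85, 3.89, 2.06, 1.49, 3.35 and 3.08. For the enteroendocrine factors Neurog3, Neurod1, Rfx6, Pax4, Pax6, Isl1, Insm1 and St18 they were 1.93, 2.97, 2.77, 1.92, 1.69, 2.75, 1.42 and 2.01. For the granule and sensing genes Chga, Chgb, Cpe, Scgn, Pcsk1, Tph1, Ffar3 and Abcc8 they were 3.32, 3.26, 2.87, 3.24, 2.07, 3.08, 1.43 and 0.93. The tuft regulators and signalling genes Pou2f3, Spib, Trpm5, Plcb2, Alox5, Alox5ap and Hpgds had gaps of 2.59, 3.13, 3.23, 2.97, 3.47, 2.72 and 1.81. The tuft adaptors, kinases and cytoskeletal genes Dclk1, Sh2d6, Sh2d7, Pik3r5, Kctd12, Inpp5d, Fyb, Avil and Vim had gaps of 3.44, 3.42, 3.34, 3.05, 2.36, 2.58, 3.28, 2.67 and 2.81. In goblet cells the gaps of Muc2, Clca1, Tff3, Spink4, Bcas1, Capn9, Guca2a, Galnt12 and Gcnt3 were 1.77, 1.95, 1.38, 1.69, 2.10, 2.72, 2.16, 1.14 and 2.02. The secretory factors Atoh1, Spdef, Creb3l4 and Bhlha15 differed by 2.02, 1.81, 1.72 and 1.41. Genes of other lists or of none, Ndrg1, Ccnj, Id4, Hk1, Ern2, Nebl and Lrmp, differed by 1.21, 1.81, 0.84, 1.08, 2.21, 2.62 and 2.84. Outside the lists, Hepacam2, Pygl, Strip2, Dgki, Tuba1a, Map1b, Gnao1, Rab27a, Rab27b, Rbp4 and Peg3 differed by 2.62, 2.60, 2.27, 2.41, 1.63, 1.64, 2.22, 1.86, 1.27, 2.52 and 1.99. The gaps of Trip13 and Rdh18-ps were negative, -0.77 and -1.19.

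In the group of 4 Ki67-high arrays, 1 array stood apart from the other 3 by Dixon's criterion in 15 of 207 values tested, where chance gives about 1 in 20. Replicate 1 stood apart for Bcas1, Cdhr5 and Nkd1, at 5.70, 9.73 and 5.53. The score of mitotic entry kinases and phosphatases stood apart in replicate 1, at 0.0993. The score of condensin and cohesin genes stood apart in replicate 1, at 0.00129. The score of stromal, endothelial, glial and erythroid markers stood apart in replicate 1, at 0.00557. Replicate 2 stood apart for Oas2, at 5.45. Replicate 3 stood apart for Olfm4 and Sqle, at 11.90 and 8.67. Replicate 4 stood apart for Alox5, Foxa3, Ncapg, Asf1b and Rab27b, at 5.29, 7.66, 8.63, 9.55 and 6.93. The score of CDK inhibitors and antiproliferative genes stood apart in replicate 4, at -0.154.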

How the results depend on the processing

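The 674 genes kept their sign in all alternatives, counted over the 640 that remained when the dimmest genes were left out, but the number of calls varied. With only the 6 Lgr5-medium arrays 318 genes rose and 55 fell, and 36 mitotic genes fell. With arrays centred on their medians 767 genes fell, and with array weights 282 fell and 299 genes passed the interaction. Leaving out 1 array gave 250 to 535 genes higher, 14 to 244 lower and 79 to 292 with an interaction, and 41 to 52 enteroendocrine, 40 to 48 tuft, 14 to 24 goblet and 7 to 88 mitotic genes called. The value of Il25 turned to -0.053 with arrays centred and ranged from -0.025 to 0.18 without 1 array, at its lowest without Ki67-low replicate 1. The causes were not tested. Of the 674 calls, 370 were shared with the fit of 6 arrays, 590 with the centred fit, 571 with quantile normalization and 247 with the fit without Ki67-low replicate 1.

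With the replicate number as a block 298 genes rose, 54 fell, 128 passed the interaction and 33 mitotic genes fell. The labels do not say that a number marks a shared origin. Deviations of same-numbered arrays of the Lgr5-medium groups correlated at r = -0.12 and -0.228. Those of Ki67-high replicate 3 with Ki67-low replicate 1 correlated at 0.45, and those of Ki67-high replicate 4 with Ki67-low replicate 2 at 0.403. The deviations of the 2 Ki67-low arrays mirror each other, so these correlations can neither show nor exclude a shared origin. With the numbers of the Ki67-low arrays crossed, 411 genes rose, 117 fell and 180 passed the interaction. The number of arrays, 2 in the Ki67-low group, limits every count.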

Other observations

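Other genes and families outside the lists were picked with their values in view. Among the genes that rose were Hepacam2, an adhesion gene, by 2.02, the glycogen phosphorylase Pygl by 2.53, Strip2 by 2.49, the diacylglycerol kinase Dgki by 2.33, the tubulin Tuba1a by 1.71, the microtubule-associated protein Map1b by 1.58, the G protein subunit Gnao1 by 1.83, the retinol carrier Rbp4 by 1.95 and the imprinted gene Peg3 by 1.71. The calls of these genes held in each of the 10 fits without 1 array. Of 58 Rab GTPase genes 5 rose, at a background of 2.65%, with a median of 0.021 that turned to -0.11 with arrays centred, and among them Rab27a, Rab27b and Rab3d, which serve regulated secretion, rose by 1.56, 1.15 and 1.0.

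Mitochondrial ribosomal proteins lay lower as a family. All 74 measured genes of the Mrpl and Mrps families were below 0, with a median of -0.34 at Lgr5 medium and -0.059 at Lgr5 high, and 6 passed limma's test, at a background of 0.93%. Mrps27 and Mrpl45 fell, with differences of -0.60 and -0.40, calls that were lost without Ki67-low replicate 1 (limma adjusted p = 0.157 and 0.272), and for Mrpl45 in 8 of the 10 fits without 1 array. With arrays centred the median was -0.475. Of 18 nucleoporin genes 2 fell (median -0.086), Nup93 at -0.54 among them, and Ndc1, which anchors the pore, fell by 0.59. Of 9 Fanconi anaemia genes 2 fell (median -0.25), Fanca at -0.47 and Fancg at -0.41. These calls too did not hold in every fit: Nup93, Ndc1, Fanca and Fancg lost theirs in 2, 1, 3 and 6 of the 10 fits without 1 array.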
